A study of Bombyx mori with 2 samples.

Results

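These data set the small non-coding RNAs of diapaused silkworm eggs beside those of the larva of instar 1. They come from 1 of the 2 samples of the series, the one whose labelled source is RNA from diapaused eggs. The members are the 132 probes named Bm- and a number, which fill 396 of the 561 spots in its table, 3 spots per probe. The study measured RNAs of 50 to 500 nt in Bombyx mori, with Dazao P50 as the strain, on a 2-colour array, a slide on which 2 labelled RNAs compete for each spot. Animals were raised after hatching at 25 °C with 14 h of light, 10 h of dark and 70% relative humidity, per the labels. The egg (called embryo in the headers) was compared with the larva as the reference of its pair, and the other sample of the series sets RNA taken at the start of pupation beside the larva of instar 5. The labels give whole eggs and larvae, with no treatment, genotype or tissue. They do not say how many animals were pooled.

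Small RNAs in this size range include box C/D snoRNAs, which guide ribose methylation of ribosomal RNA, and box H/ACA snoRNAs, which guide pseudouridylation. Spliceosomal snRNAs, which act in intron removal, and the RNA of the signal recognition particle, which acts in protein targeting, also fall in it. In Bombyx mori, diapause is an arrest of the early embryo inside the egg, set by a hormone of the mother, in which growth stops and metabolism is low until a long cold period ends it. The larva of instar 1 is the newly hatched, feeding animal. The sources used here give the probes by name only, so no probe is assigned to any of these classes, and its sequence and position were not used here.

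The pair was hybridised on 2 arrays with exchanged dyes. The first array held the larva in Cy3 and the egg in Cy5, and the second array held the egg in Cy3 and the larva in Cy5. There was 1 RNA preparation a side, so spots and dye orientations are technical repeats, no difference below has a biological replicate, and no test between the stages was made. Values are log2(egg/larva) of the deposited signals, averaged over usable spots and then over orientations. Errors are the technical SD over spots, with each spot first averaged over the arrays on which it was usable. For spots usable on both arrays, the gap between the arrays is therefore not in the error. Spots usable on 1 array enter with the value of that array. A spot was usable where the authors' flag was 0, which held for 61.6% of the 396 spots on the first array and for 84.6% on the second. Of the 132 probes, 119 had a usable spot, 96 had one in both orientations and 62 had all 3 spots usable in both. In bulk RNA, fewer cells that hold an RNA and less of it per cell cannot be told apart.

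By the deposited signals, most probes had a log2 ratio near 0. Of the 119 measured probes, 87 lay within 0.5 of 0 on the log2 scale. Of all 119, 60 were positive and 59 negative, and the median was 0.01. In 66 of the 119, 1 or more mean signals did not exceed the 95th percentile of negative control, blank and buffer spots. For these dim probes, a small ratio says little about how alike egg and larva were. The signals were also taken as normalized before deposit. The balance of signs and the median therefore do not measure how alike the stages were. A probe was called when its log2 ratio was at least 1 in size (2-fold) with the same sign in every usable spot of both arrays. By this rule 8 probes were higher in egg (6.72% of those measured) and 3 were lower (2.52%). A further 11 probes lay between 0.5 and 1 and 10 between -0.5 and -1. All usable values were above 0 in 34 probes (28.6%) and below 0 in 33 (27.7%), and in 52 the values had both signs. With the controls instead set to 0 on each array, the balance turned, to 1 higher and 11 lower probes around a median of -0.45. Most probes named below were picked by a rule from their values. The 79 measured probes outside that rule lay between -0.71 and 0.73, and a few of them are described as well, picked after their values were seen.

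**Figure D1:**
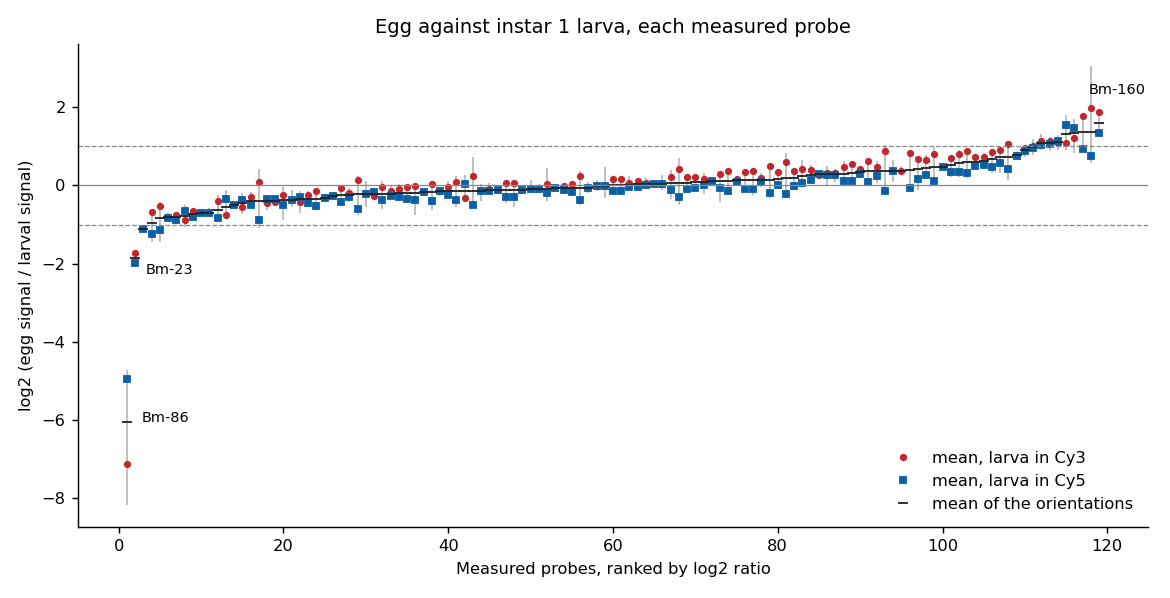
The log2 ratio of egg over larval signal is plotted for the 119 measured probes in rank order, with the mean of each dye orientation as a point, the mean of the orientations as a dash and a grey line from the lowest to the highest single value. Dashed lines mark 2-fold; Bm-86 and Bm-23 stand apart at the low end, at -6.04 and -1.85, and no probe stands apart to that extent at the high end.

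The 8 probes higher in egg were Bm-160, Bm-159, Bm-180, Bm-174, Bm-140, Bm-151, Bm-183 and Bm-152, between 3.04-fold and 2.12-fold by the deposited signals. For 6 of them the mean larval Cy3 signal was no higher than the 95th percentile of negative spots, so these folds depend on how dim signals are treated. With dim signals raised to that percentile in each channel, Bm-140, Bm-152, Bm-159 and Bm-174 were no longer called, at 0.76, 0.90, 0.64 and 0.77 on the log2 scale. Bm-160 then fell to 1.16 and Bm-180 to 1.05, and both stayed past 2-fold. Bm-160 had mean signals of 1643 in egg and 451 in larva on the first array, and 1419 and 551 on the second. Its log2 ratio was 1.61 ± 0.08 (SD, 3 spots), and its 6 single values ran from 1.25 to 1.96. Egg and larval spots of Bm-160 did not overlap on either array. Bm-174 had 889 in egg and 379.7 in larva on the first array and 1671 and 607 on the second, for a log2 ratio of 1.33 ± 0.09. Bm-180 had 1949.5 and 563 on the first array, from 2 usable spots, and 2379.5 and 1259 on the second. Its orientations gave 1.78 and 0.93, so that its ratio of 1.35 ± 0.19 was past 2-fold through the first array.

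Bm-159 and Bm-140 reached a like mean in different ways. The 3 spots of Bm-159 gave 0.62, 3.06 and 2.23 on the first array, where the egg signals were 170, 1199 and 3054.5 and the larval signals 110.9, 144 and 651. On the second array they gave 0.56, 0.60 and 1.12. The ratio of Bm-159, 1.36 ± 0.67, thus rested mainly on 2 spots of 1 array, and its first spot was below 2-fold in both orientations. Bm-140 had 822 in egg and 388 in larva on the first array, and 3248 and 1130.2 on the second. Both channels of Bm-140 were brighter on the second array, and its ratio was the larger there, at 1.54 against 1.08, for a mean of 1.31 ± 0.04. Its single values ran from 0.91 to 1.80, a spread that this SD does not show.

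Bm-151, Bm-183 and Bm-152 were the steadiest of the higher probes across dyes, and all were near the threshold. Bm-151 had 3889.9 in egg and 1849.6 in larva on the first array and 2699 and 1223.5 on the second, for a log2 ratio of 1.11 ± 0.13. Bm-183 had 6659 and 3079.9, then 3739.6 and 1824, for 1.09 ± 0.14. Bm-152 had 1414 and 637, then 1695 and 833, for 1.08 ± 0.08. The gap between the arrays was at most 0.104 in these 3 probes. Bm-152 and Bm-183 were the members just inside the threshold, and Bm-100 at 0.99 ± 0.11 and Bm-158 at 0.92 ± 0.06 were just outside it.

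The dim signals of these probes were mostly in larval Cy3. Negative control, blank and buffer spots had a 95th percentile of 825 there, against 212 in larval Cy5, 455 in egg Cy5 and 444 in egg Cy3. In larval Cy3, 43.4% of the usable Bm- spots were at or below that percentile, against 0.60%, 4.51% and 23.6% in the other channels in the same order. The mean larval Cy3 signal was at or below it in 6 of the 8 higher probes, and Bm-151 and Bm-183 were above it in all 4 channels. All 8 were above it in both egg channels and in larval Cy5.

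**Figure D2:**
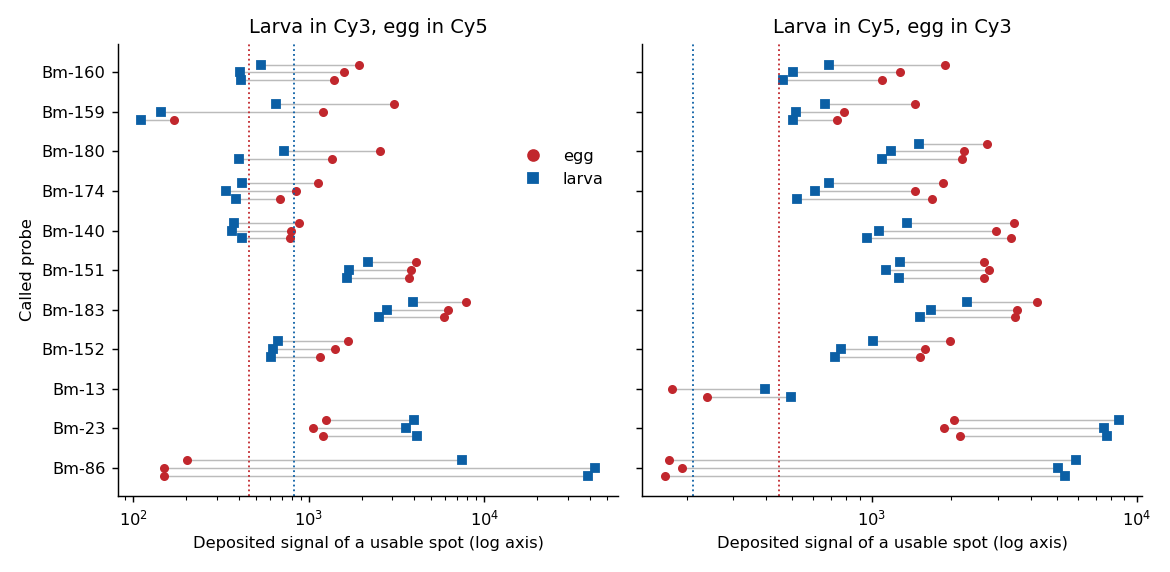
Deposited signals of the usable spots of the 11 called probes are shown on a log axis, egg as circles and larva as squares joined per spot, for each dye orientation in a panel. Dotted lines mark the 95th percentile of the 108 negative control, blank and buffer spots of the egg (red) and larval (blue) channel; only Bm-86 and Bm-13 have all egg spots below the egg line.

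Among the 3 lower probes, Bm-23 was the one with all 4 signals well inside the measured range. Its egg signals were 1214, 1057 and 1256 against larval signals of 4133, 3569 and 3993 on the first array. On the second array they were 2157, 1878 and 2038.5 against 7742, 7559 and 8603. Egg and larval spots were far apart on both arrays, and the single ratios ran from -2.08 to -1.67. The log2 ratio was -1.85 ± 0.04, or 3.61-fold lower in egg.

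Bm-86 had the lowest ratio, and its spots fell into 2 kinds. On the second array, the egg signals were 165, 191 and 171 and the larval signals 5380.4, 5063 and 5889, which gave log2 ratios of -5.03, -4.73 and -5.10. On the first array, the third spot had an egg signal of 203 and a larval signal of 7518, for -5.21, close to those values. The first and second spots had egg signals of 149.5 and 149.5, at the floor that 170 of the 561 spots shared in egg Cy5, and larval signals of 39184 and 43079, for -8.03 and -8.17. Of the usable Bm- spots, these 2 were the only ones at that floor.

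Other spots with the egg Cy5 signal at the floor also had very high larval Cy3 signals. Larval Cy3 was over 15000 in 8 of the 170 floor spots, and 6 of these were flagged by the authors. The 6 belonged to Bm-20, Bm-30, Bm-81, Bm-95 (2 spots) and the control named RpL3. Their larval Cy3 signals lay between 19774 and 22874, while the same spots had larval Cy5 signals of 206 to 836 on the other array. In usable spots of both arrays, larval Cy3 over larval Cy5 had a median of 0.98. It was 7.28 and 8.51 in the first and second spots of Bm-86 and between 27.4 and 95.9 in the 6 flagged spots. With these floor spots left out, an alternative chosen after seeing the data, the log2 ratio of Bm-86 was -5.08, or 33.8-fold lower, against -6.04 ± 0.77 with them (66.0-fold). The larger value therefore rests on 2 spots of 1 array. Because both egg signals of Bm-86 were at or below the 95th percentile of the negative spots, the fold itself is not a sound size. With dim signals raised to that percentile, it was 25.0-fold lower in egg.

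**Figure D3:**
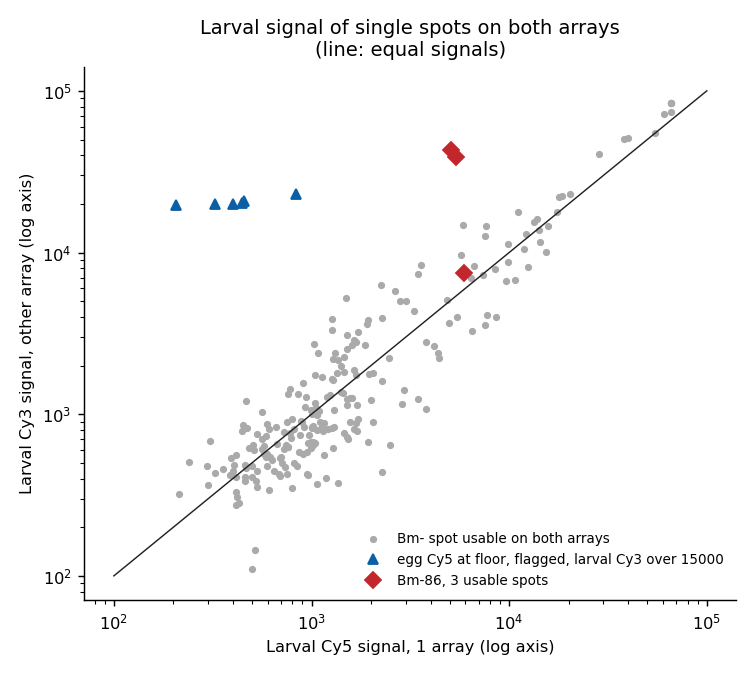
The larval signal of single spots is plotted for the first array (larva in Cy3) against the second (larva in Cy5), both on log axes, for the 234 Bm- spots usable on both arrays (grey and red) and 6 flagged spots with the egg Cy5 signal at its floor (blue). The third spot of Bm-86 lies near the line of equal signals, and its other 2 spots lie above it, at 39184 and 43079.

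Bm-13 was called lower on little data. It was usable in 2 spots of the second array only, with mean signals of 207 in egg and 445 in larva, for a log2 ratio of -1.11 ± 0.08. That egg signal lay under the 95th percentile of the negative spots. With dim signals raised to it, the log2 ratio was 0.0065. Bm-13 was the member just inside the threshold on the low side, Bm-23 being next but well past it, and Bm-128 at -0.96 ± 0.42 and Bm-18 at -0.83 ± 0.18 were just outside. Bm-128 had 1 usable spot on the first array, at -0.67, and 2 on the second, with a mean of -1.25. The authors' deposited table, which weighs spots and not orientations equally, lists Bm-128 at -1.15, past 2-fold.

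Below the threshold, the 10 highest probes with all spots usable had 1 sign in all 6 values. In falling order they were Bm-100, Bm-102, Bm-36, Bm-162, Bm-163, Bm-172, Bm-83, Bm-141, Bm-168 and Bm-146. Among all 62 probes with complete spot sets, 21 had only positive and 18 only negative values. The 10 were picked as the highest, so their common sign is no separate support. Bm-102 was nearly the same in both orientations, at 0.78 and 0.76, with signals of 17572 in egg and 10128 in larva, then 18343 and 10804. Its log2 ratio of 0.77 ± 0.05 came from signals far above the negative spots. Bm-162 at 0.63 ± 0.08 and Bm-163 at 0.61 ± 0.06 had nearly equal ratios. Of the 10 probes, 7 were above the 95th percentile of the negative spots in all 4 channels, against 47 of the 96 probes measured in all 4. Bm-83 was not: its larval Cy3 signal was 296, and its orientations gave 0.80 and 0.12.

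The 10 lowest such probes below the threshold were Bm-18, Bm-136, Bm-75, Bm-6, Bm-79, Bm-50, Bm-155, Bm-148, Bm-117 and Bm-76. In 9 of them all 6 values were negative, against 18 of all 62 probes with complete spot sets. Bm-76 was the exception, at 0.08 on the first array and -0.88 on the second. Bm-136 gave -0.82 in both orientations, from 2487 in egg and 4414 in larva, then 1221 and 2160.3, with an SD of 0.06. Bm-75 differed more between orientations, at -0.76 and -0.88, for a mean of -0.82 ± 0.02. Its single values ran from -0.95 to -0.68, so the small SD holds only for spots averaged over the arrays. These 2 probes were 1.76-fold lower in egg and did not reach the threshold. By the SD of averaged spots, they varied less than most called probes.

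Among probes with complete spot sets, Bm-11, Bm-154, Bm-68, Bm-129 and Bm-3 had the ratios nearest 0, from 0.01 to 0.06. Bm-154 had 15101 in egg and 14091 in larva, then 14165 and 14674. Its single values ran from -0.12 to 0.25. Bm-3, at 0.06, had a wider spread, from -0.50 to 0.71, with an egg Cy3 and a larval Cy3 signal at or below the 95th percentile of the negative spots. A ratio near 0 in a dim probe such as Bm-3 is not shown to be a lack of difference.

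The brightest uncalled probes were Bm-33, Bm-101, Bm-68, Bm-146 and Bm-172. Bm-33 had log2 ratios of -0.43 on the first array and -0.36 on the second, and its SD over spots was 0.0019, the lowest of all probes. Its first spot was the brightest of all spots in each channel, and its other spots reached at least 98.9% of it. Its log2 ratios are thus those of the highest signals of the channels, -0.43 and -0.36. They are not shown to measure egg against larva, and the SD of Bm-33 is no measure of precision. Bm-101, at -0.30 and -0.33, reached at least 99.0% of the highest signal in both egg channels and 85.4% and 92.9% in larval Cy3 and Cy5. Whether these signals were saturated was not tested, so the ratios of Bm-33 and Bm-101 are not sound sizes. Bm-68 stayed below, with its lowest larval spot at 58.1% of the Cy5 maximum, and was at 0.03 ± 0.04. Bm-172 and Bm-146 were higher in egg in all 6 values, at 0.60 ± 0.08 and 0.36 ± 0.04.

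The dye orientations ranked the probes alike but were offset. Over the 96 probes usable in both, the log2 ratios correlated at r = 0.92 and rho = 0.85, and at r = 0.87 and rho = 0.84 without Bm-86. These are across probes of the same 2 arrays and RNAs, which are not replicates. The median was 0.20 on the first array and -0.11 on the second, a gap of 0.31. In 82 of the 96 probes the ratio was higher on the first array. The orientations had opposite signs in 30 probes, of which 29 were positive on the first array. For these 96 probes, averaging the orientations cancels the part of such an offset that is equal and opposite on the 2 arrays. Whether the offset was of that kind was not tested. For the 23 probes usable in 1 orientation nothing is cancelled.

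**Figure D4:**
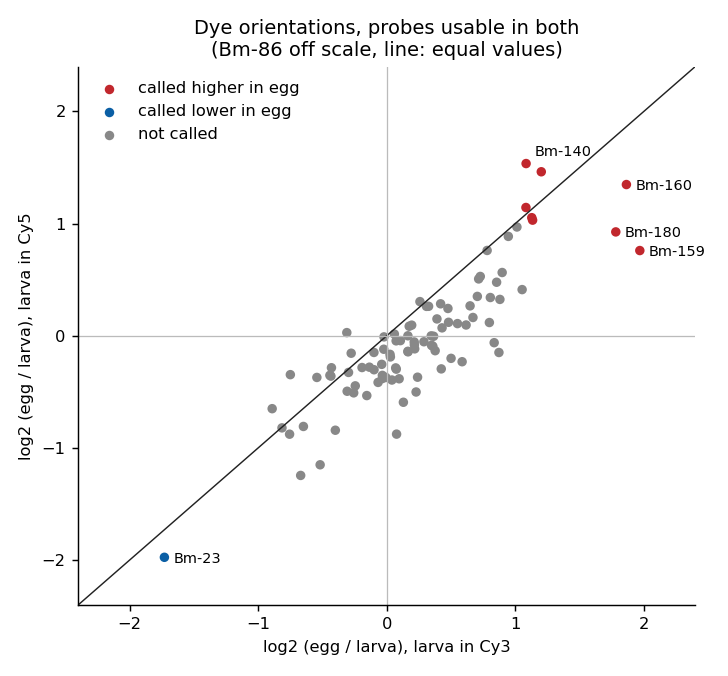
Each point is 1 of 95 probes usable in both dye orientations, with its log2 ratio on the first array (larva in Cy3) on the horizontal axis and on the second (larva in Cy5) on the vertical axis (Bm-86, at -7.14 and -4.95, is off scale). Most points lie below the line of equal values, Bm-159 and Bm-180 farthest among the higher probes, and Bm-140 lies above it.

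Of these 23 probes, 22 were measured on the second array only and Bm-38 on the first only, at 0.38 ± 0.11. The 22 had a median of -0.11 and ran from -1.11 (Bm-13) to 0.48 (Bm-35). In 16 of them the egg Cy3 signal was at or below the 95th percentile of the negative spots. Bm-81 at -0.71 ± 0.08 and Bm-95 at -0.69 ± 0.11 followed Bm-13 at the low end. Both had the flagged larval Cy3 signals of over 15000 described above, which did not enter their ratios. With flagged spots kept, both were called lower.

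The probes higher in egg were not spread evenly over the probe names. Of the 21 measured probes numbered 151 to 183, 19 had a positive ratio and 7 were called higher (33.3%, against 6.72% of all probes). Their median was 0.61, with a middle 50% from 0.30 to 1.09. The medians were 0.0036 for the 42 probes numbered 1 to 50, -0.15 for the 32 numbered 51 to 100 and -0.10 for the 24 numbered 101 to 150. Bm-140 was the only higher probe numbered below 151, and the 3 lower probes all had numbers up to 100. The 2 negative probes in the last class were Bm-155 at -0.55 ± 0.12 and Bm-171 at -0.19 ± 0.06. These classes were set after the values were seen and carry no test.

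The last class had the higher median on each array, at 0.81 on the first and 0.41 on the second, against 0.10 and -0.15 for all lower numbers. The class was set after these same ratios were seen. Its medians by array and by brightness describe them again and are no independent support. Its probes were also brighter, with a median log2 signal of 10.4 against 9.48. With the probes cut into 3 sets of like size by brightness, in the brightest set its median was 0.45 (12 probes) against -0.13 for lower numbers (28 probes). In the middle set it was 1.33 (5 probes) against -0.08 (34), and in the dimmest set 0.65 (4 probes) against -0.08 (36). On the pupa arrays the same class had a median of 0.09 over 19 probes, 11 of them positive, against -0.03 over 92 probes. The order of the spot table follows the probe numbers, and the sources used here do not say what sets the numbering. Whether slide position moves with the number was not tested.

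**Figure D5:**
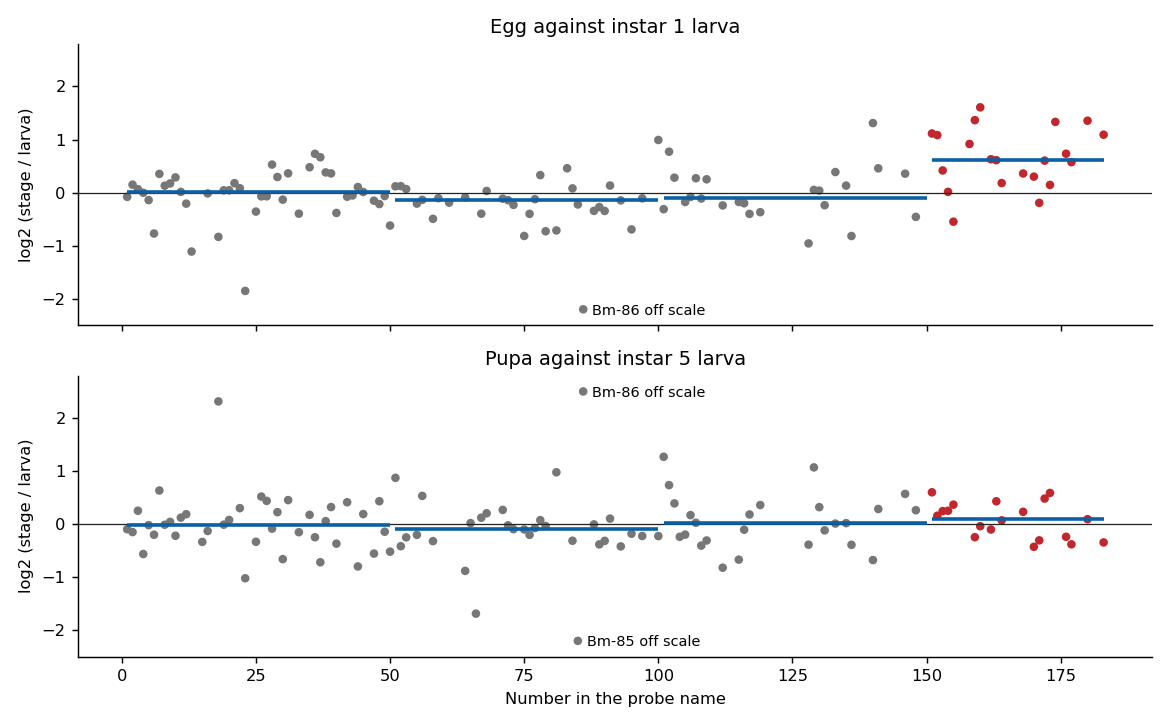
The log2 ratio of each probe is plotted against the number in its name, for egg against the larva of instar 1 (top) and for pupa against the larva of instar 5 (bottom), with numbers above 150 in red and the median of each number class as a blue bar. The bar of the last class stands at 0.61 in the egg panel and 0.09 in the pupa panel; Bm-86 and, in pupa, Bm-85 are drawn at the edge of the scale.

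What is taken as unchanged decides the sign of many of these ratios. One control, control_ph, of unstated role, had 12 usable spots with a log2 ratio of 0.58 ± 0.25, close to the median of the probes numbered 151 to 183. The control messenger RNAs of an actin (actinA3) and a ribosomal protein (RpL3) had 2 and 1 usable spots of 12 each, all on the second array. The 2 values of actinA3 differed in sign, at -0.33 and 0.26, for a mean of -0.03 ± 0.41. The 1 spot of RpL3 was at -0.36. On that array alone, control_ph was at 0.32. Of these controls, only control_ph thus had a usable spot on the first array. Among the 48 blank spots, 1 was also usable there, at a log2 ratio of 0.997, and it did not enter the centring on controls. When the controls were set to 0 on each array, all probes had a median of -0.45, the probes numbered 151 to 183 one of 0.08, with 13 of 21 positive, and the other 3 classes medians between -0.66 and -0.43. This centring moves all probes of an array by 1 amount, so it bears on the level of each class against the larva and little on the gap between classes. The level of the last class was thus not settled. Under that centring Bm-160 was the only higher probe, and 11 probes were lower.

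On the pupa arrays, which compared other animals and another larva, the probes higher in egg showed no common direction. Of the 8, 7 had a value there, from -0.68 for Bm-140 to 0.60 for Bm-151, 3 of them positive and none called higher. Bm-174 had no usable spot on the pupa arrays. Bm-23 was lower in both pairs, at -1.02 ± 0.07 in pupa. Bm-102 was alike in both, at 0.77 ± 0.05 in egg and 0.73 ± 0.05 in pupa. Bm-100, just below 2-fold in egg, was at -0.23 ± 0.07 in pupa. These values stand side by side as descriptions, since each pair has 1 RNA preparation a side.

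No value could be given for 13 probes, which had every spot flagged on both arrays. They were Bm-15, Bm-17, Bm-24, Bm-57, Bm-65, Bm-66, Bm-98, Bm-104, Bm-111, Bm-121, Bm-137, Bm-142 and Bm-175. Flagged Bm- spots had median signals of 235 in egg Cy5 and 411 in larval Cy3, and of 234 and 215 in egg Cy3 and larval Cy5. Usable spots had medians of 1143 and 899, then 790 and 883. By these medians flagged spots were dimmer in all 4 channels, but the sources used here do not state the rule behind the flag, and these 13 RNAs are not shown to be absent from egg or larva.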

How the data were processed

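RNA of diapaused eggs and of the larva of instar 1 was measured on a 2-colour array in both dye orientations. Per the labels' protocols, Trizol was used to extract the total RNA, and the dyes were built in as cDNA was made. Per the file headers, R is Cy5 and G is Cy3. The deposited spot signals are intensity values. They are not whole numbers and share floor values, so it was inferred that background correction and normalization had been done before deposit, and the planned normexp step was not applied. The scanner and the tools are not named in any source used here. Also deposited were, for each spot, a flag score on each array (0 or -50), a log2 ratio, which equals the mean of log2(egg/larva) over arrays flagged 0, and a p-value, which has no biological replicate behind it and was not used. A series-wide table gives the authors' mean of these log2 ratios per probe, with a median of -0.03 in egg, so its scale, direction and lack of centring were settled from the spots.

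Log2 ratios were computed with Python 3.11.15 and pandas 2.3.3, and the refitted loess (span 0.4, 4 iterations) with statsmodels 0.14.6. The ratio and call steps, without this loess, were tested on simulated data that kept the true pattern of flags. Full recovery was required there from 3-fold upward, not at the 2-fold threshold, and signals at the floor were not simulated. Named probes were all called probes, then, among uncalled probes with complete spot sets, the 10 highest, the 10 lowest, the 5 nearest 0 and the 5 brightest, up to 2 probes on each side of the threshold, and every probe without a usable spot. Others were picked out after their values were seen. Members, lists and rules were chosen with earlier results of these data known. The planned RNA classes could not be assigned, since no source used here gives them. The number of arrays limits the precision. Alternatives changed the scaling, flags, orientation, averaging, dim signals, loess, spots and threshold.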

Additional observations from a re-analysis of the deposited data

Results flagged for a closer look

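Bm-86 had every usable value below 0 in the egg pair, with a log2 ratio of -6.04, and every value above 0 on the pupa arrays, with 3.16. Bm-159 had every value above 0 in egg, at 1.36, and both usable values below 0 on the pupa arrays, at -0.25 from 1 orientation. These differences between the pairs were not tested.

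Signal was also present outside the compared probes. In egg, control_ph had a log2 ratio of 0.58. The authors' deposited table lists a probe Bm-110 at -0.50 in egg, a name that the spot table used here does not hold.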

How the results depend on the processing

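Leaving out spots at the floor, requiring complete spot sets and taking the authors' value per spot were added after seeing the data, as was the number class. The 8 higher calls were 1 with centring on the controls, 4 with dim signals raised, 17 at 1.5-fold and 1 at 3-fold. The 3 lower calls were 12 at 1.5-fold, 11 with centring on the controls, 5 on the second array (larva in Cy5) alone and 6 when flagged spots were kept. Leaving out each spot in turn gave 8 to 10 higher and 3 to 4 lower calls. Bm-23, Bm-86 and Bm-160 kept their call under all 14 alternatives run for single probes. With dim signals raised, Bm-13 was no longer called, at 0.0065, a value that came from raising its egg Cy3 signals alone and shows no direction. Bm-159 was not called under 5 alternatives, and Bm-128 was called lower under 7. The median of probes numbered above 150 ran from 0.08 with centring on the controls to 0.81 on the first array (larva in Cy3) alone. The causes were not tested. The planned normexp step was not run, since the signals were taken as corrected. Signals at or below those of negative spots, mainly in larval Cy3, limit the ratios.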
